A study of Mus musculus with 12 samples.

Results

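The matrilins, thrombospondins and emilins are secreted proteins of the extracellular matrix (ECM), and 9 mouse genes of these 3 families were followed here: Matn2, Matn3, Matn4, Thbs1, Thbs2, Thbs3, Thbs4, Emilin1 and Emilin2. They were taken by name from a list and found in the count files through their Ensembl identifiers, as 9 of 54146 genes. Of the 9, 8 had enough reads to be tested and Matn4 did not, among 18628 genes tested in all.

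RNA from the whole retina of 1 eye of each of 12 mice on a 129/SV background was sequenced to follow the retina after deletion of Otx2, a homeobox transcription factor gene, in adult photoreceptors. The cKO mice were Crx-CreERT2;Otx2 flox/flox, in which a tamoxifen-dependent Cre recombinase is made under control of the photoreceptor gene Crx. They received tamoxifen once at postnatal day 30 (P30) and were killed 2 d (P32, mice 4 to 6), 4 d (P34, mice 7 to 9) or 8 d (P38, mice 10 to 12) later. The control mice (mice 1 to 3) were killed at P30, 0 d after tamoxifen, so that age, tamoxifen and deletion cannot be told apart in any comparison with them. The labels call them controls and do not give their alleles. Both sexes were used: by their Xist counts the 3 P30 mice were female, and 2 of 3 P32, 1 of 3 P34 and 1 of 3 P38 mice were female.

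Matrilins are adaptor proteins built around von Willebrand factor A domains that tie collagen fibrils and proteoglycans together, and they are best known from cartilage and other connective tissues. Thrombospondins are calcium-binding glycoproteins that are released by many cell types, including vascular cells and glia. Some of them act on vessel growth, synapse formation or the activation of TGF-beta, in part through cell surface receptors. Emilins sit where elastin meets the microfibrils of elastic fibers, bind integrins and, in the case of Emilin1, restrain the processing of TGF-beta precursors.

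Counts on genes ranged from 29701483 to 60145034 per mouse, so that 3 counts, the limit below which a gene was treated as not detected, correspond to 0.0473 to 0.102 counts per 1000000 counts on genes (CPM) after scaling. Summed rod markers were at 53956 to 99663 CPM in all mice, while lens crystallin and fiber markers ranged from 238 to 37929 CPM. Otx2 itself was at 293 to 377 CPM over its whole transcript in all mice, and a deleted exon would not be seen in that value. Levels below are CPM after edgeR's TMM scaling. Lower and higher are used of genes that passed an adjusted p of 0.05 and moved by 0.5 or more on the log2 scale. The test was edgeR's quasi-likelihood F test, adjusted by Benjamini-Hochberg over all genes tested.

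The main pattern had 2 sides. Matn2 was lower at P34 than at P30, P32 and P38, while Matn3 and Emilin2 were lower in all cKO mice than in all P30 mice but owed their P30 level to mice 2 and 3. Thbs2 was below all P30 mice in each cKO mouse but did not pass the test in the full fit, and Thbs1, Thbs3, Thbs4 and Emilin1 were not called in any comparison.

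**Figure D1:**
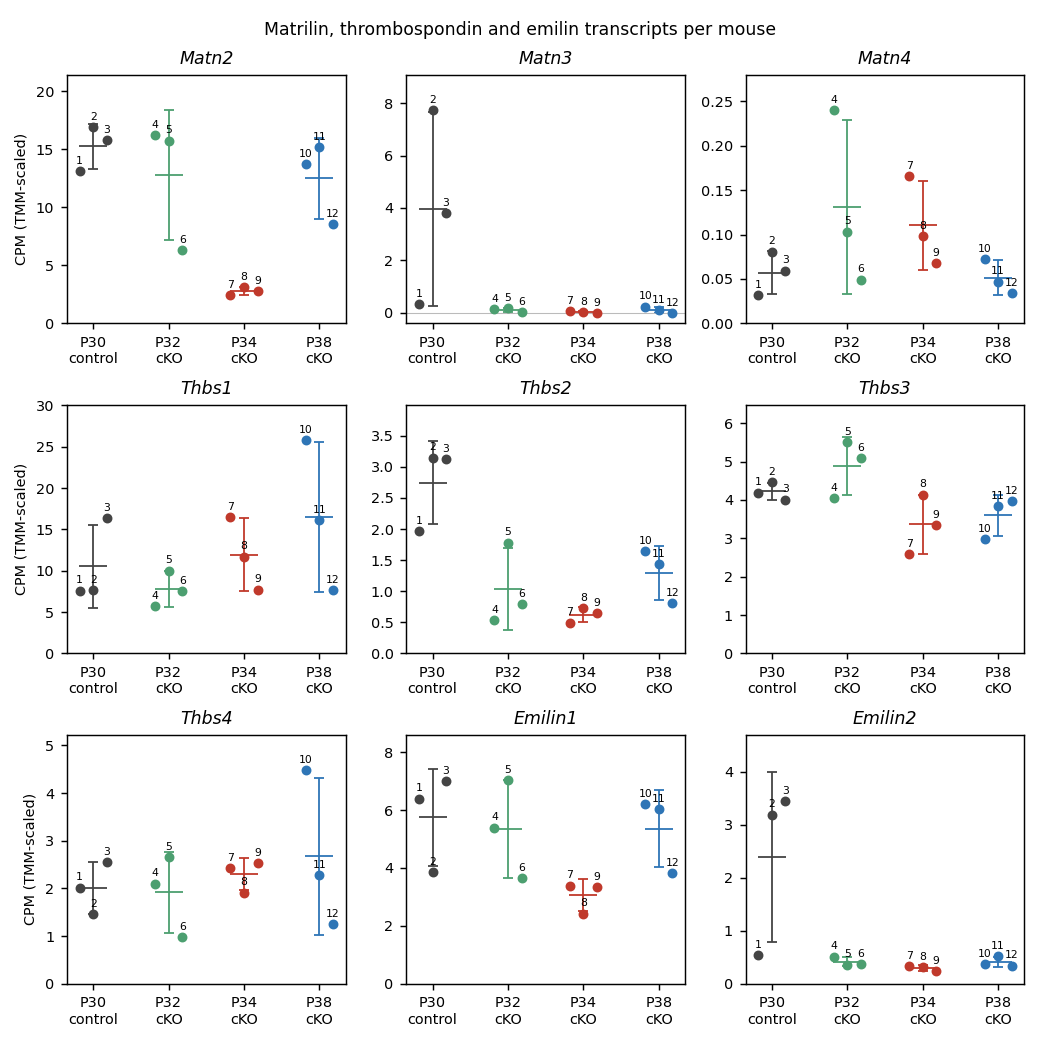
Level of each of the 9 genes in CPM (vertical axis, linear, one scale per gene) in the 12 mice by condition; points are mice with their numbers, the horizontal bar is the mean and the error bar the SD (n = 3). Matn2 dropped to 2.40 to 3.11 CPM in the 3 P34 mice, and P30 mice 2 and 3 stood above the other 10 mice for Matn3, Thbs2 and Emilin2.

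Matn2 (ENSMUSG00000022324, chromosome 15 of GRCm38 from 34306677 to 34436273, plus strand) encodes matrilin-2, a widely made matrilin of connective tissue and basement membranes. Its level was 13.1, 16.9 and 15.8 CPM in P30 mice 1, 2 and 3, and 16.2, 15.7 and 6.28 CPM in P32 mice 4, 5 and 6. At P34 it was 2.40, 3.11 and 2.74 CPM, and at P38 it was 13.7, 15.2 and 8.55 CPM. The 3 P34 mice lay below all 9 other mice, and mice 6 and 12 were the lowest of the remaining mice. The mean of 15.3 ± 1.95 CPM (SD, n = 3) at P30 compared with 2.75 ± 0.354 CPM (SD, n = 3) at P34, a log2 fold change of -2.47 ± 0.33 (SE) or 5.53-fold less (edgeR's quasi-likelihood test, adjusted p = 0.00456). Against P32, the P34 level had a log2 fold change of -2.21 ± 0.33 (SE; edgeR, adjusted p = 0.0162), and from P34 to P38 it rose by 2.18 ± 0.33 (SE; edgeR, adjusted p = 0.0207). The call against P32 was lost without mouse 5, 7, 8 or 9 and with only those conditions in the fit, and the call from P34 to P38 without mouse 7, 8, 9, 10 or 11, while the call against P30 was kept without any 1 of the 12 mice. Neither P32 (log2 fold change -0.26 ± 0.31) nor P38 (-0.29 ± 0.31) differed from P30 past the threshold.

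Matn2 moved with the markers of the ciliary body, the ring of tissue in front of the retina. The summed level of 5 ciliary body markers (Otx1, Zic1, Zic4, Wfdc1 and Optc) was 116 to 133 CPM in the P30 mice, 55.8 to 142 CPM at P32, 11.1 to 16.5 CPM at P34 and 55.2 to 101 CPM at P38. The mice with the lowest Matn2 outside P34, 6 and 12, also had the lowest ciliary body sums outside P34, at 55.8 and 55.2 CPM. The sum of 7 lens markers was also low at P34, at 238 to 661 CPM, against 452 to 33866 CPM at P30, and that of 6 fibroblast markers was 26.5 to 49.4 CPM at P34 and 64.2 to 94.9 CPM at P30; the part of either tissue was not tested. With the mean log2 level of these 5 markers as a covariate, the log2 fold change of Matn2 at P34 was 0.28 ± 0.66 (SE; edgeR, adjusted p = 0.904), where the 21 alternatives tried gave adjusted p values from 1.76e-11 to 0.904 and 20 of them called it lower. The 3 P34 mice had the lowest ciliary body sums of all 12 mice, so that the share of tissue carried over and the level of Matn2 within a tissue cannot be told apart. In whole retinas, fewer cells of a type and less RNA per cell also cannot be told apart, which holds for all values here.

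**Figure D2:**
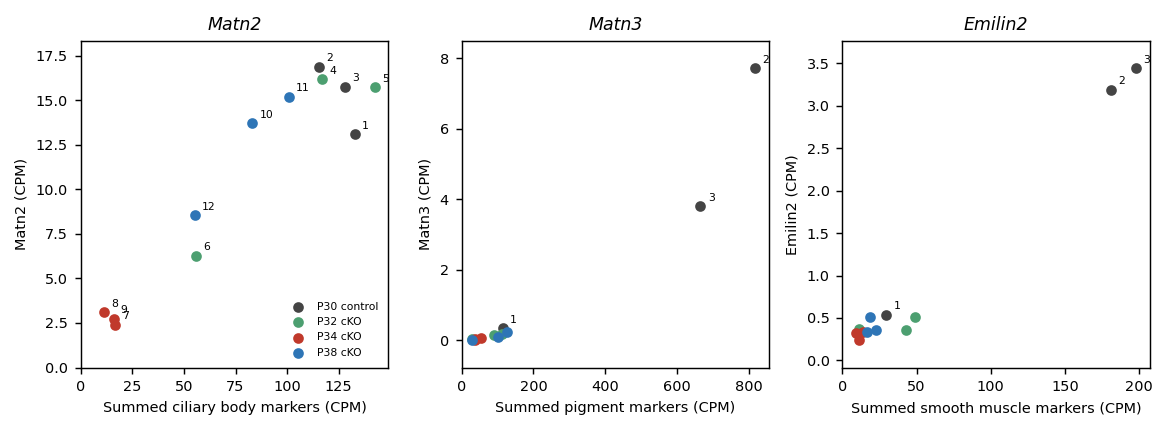
Level of Matn2, Matn3 and Emilin2 (vertical axes, CPM) in each of the 12 mice against the summed level of a marker list in the same mouse (horizontal axes, CPM): ciliary body for Matn2, pigment cells for Matn3 and smooth muscle for Emilin2; numbers are mice. P34 mice were lowest on both axes of the Matn2 panel, and P30 mice 2 and 3 lay apart from the other 10 mice in the others.

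Matn3 (ENSMUSG00000020583, plus strand of chromosome 12, 8947929 to 8972028 in GRCm38) encodes matrilin-3, known mainly from cartilage. It had 0.347, 7.73 and 3.80 CPM in P30 mice 1, 2 and 3, from 22, 383 and 128 counts. The P32 mice had 5, 7 and 1 counts, the P34 mice 2, 1 and 0, and the P38 mice 10, 4 and 0. All 9 cKO mice were thus below all 3 P30 mice, but P30 mouse 1 stood closer to the cKO mice than to its own group. Matn3 passed the filter on low counts (0.259 CPM in 3 mice) only through the 3 P30 mice and in 0 of 9 cKO mice, so that it could enter the test only as a gene high at P30, and its calls do not count as support for the members as a group. Since no P34 mouse exceeded 3 counts, the change at P34 is given as a bound: with the P34 mice set to that floor, Matn3 was at least 39-fold lower than at P30 (edgeR, fitted log2 fold change -6.99 ± 1.30, adjusted p = 0.0328). The bound rests on P30 mouse 2, without which it was 20.4-fold, and it was 56.8-fold without mouse 1 and 39.8-fold without mouse 3. The fitted log2 fold change against P30 was -5.05 ± 1.07 (SE; edgeR, adjusted p = 0.698) at P32 and -5.00 ± 1.07 (SE; edgeR, adjusted p = 0.527) at P38. With the 9 cKO mice as one group it was -5.43 ± 0.73 (SE; edgeR, adjusted p = 0.0280). The sum of 5 cartilage markers was 15.3 to 16.9 CPM at P30 and 12.0 to 19.3 CPM in the cKO mice, but nearly all of it came from Cnmd (mean 15.1 CPM at P30), so that it says little about cartilage. Matn1, which defines cartilage among them, had at most 2 counts in any mouse, and the part of cartilage in the level of Matn3 was not tested.

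Matn4 (ENSMUSG00000016995, chromosome 2 from 164389393 to 164405160, minus strand) encodes matrilin-4, a matrilin of connective and nervous tissue. It had 2 to 4 counts in the P30 mice, 2 to 8 at P32, 2 to 6 at P34 and 1 to 3 at P38, and was not tested. At these counts a difference between conditions was not detectable.

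Thbs1 and Thbs2 encode the trimeric thrombospondins, which inhibit vessel growth. Thbs1 (ENSMUSG00000040152, chromosome 2 from 118111876 to 118127133, plus strand) had 7.60, 7.67 and 16.3 CPM in the P30 mice and 5.70, 10.0 and 7.56 CPM at P32. The P34 mice were at 16.5, 11.7 and 7.71 CPM and the P38 mice at 25.9, 16.1 and 7.67 CPM. The values of all conditions overlapped, and the widest spread was within P38. Compared with P30, P32 mice had a log2 fold change of -0.43 ± 0.44, P34 mice of 0.19 ± 0.44 and P38 mice of 0.66 ± 0.43 (SE; edgeR, adjusted p = 0.743, 0.921 and 0.847).

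Thbs2 (ENSMUSG00000023885, chromosome 17 from 14665500 to 14694235, minus strand) was at 1.97, 3.15 and 3.12 CPM in P30 mice 1, 2 and 3. The P32 mice were at 0.540, 1.78 and 0.788 CPM and the P34 mice at 0.497, 0.735 and 0.643 CPM. The P38 mice were at 1.65, 1.43 and 0.814 CPM. Each cKO mouse lay below each P30 mouse, although mouse 5 at 1.78 CPM came close to mouse 1 at 1.97 CPM. The log2 fold change against P30 was -2.12 ± 0.43 (SE; edgeR, adjusted p = 0.0513) at P34, just outside the threshold. It was -1.39 ± 0.41 at P32, -1.07 ± 0.40 at P38 and -1.46 ± 0.36 for all 9 cKO mice, with adjusted p values of 0.698, 0.847 and 0.442 (edgeR).

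Thbs3 and Thbs4 belong with cartilage oligomeric matrix protein (Comp) to the pentameric thrombospondins. Thbs3 (ENSMUSG00000028047, chromosome 3 from 89215180 to 89226837, plus strand) varied least relative to its level, from 2.59 to 5.50 CPM over all mice. Its means were 4.22 ± 0.227 CPM at P30, 4.88 ± 0.751 at P32, 3.36 ± 0.772 at P34 and 3.60 ± 0.537 at P38 (SD, n = 3 each). Its 3 P38 values lay below the 3 P30 values, yet the log2 fold change of -0.23 ± 0.21 was not called (edgeR, adjusted p = 0.875). It was 0.21 ± 0.20 for P32 and -0.33 ± 0.21 for P34 mice (edgeR, adjusted p = 0.737 and 0.606). Of its exonic bases, 318 (6.59%) are shared with Mtx1 on the opposite strand, which had 533 to 1477 counts per mouse, so that its counts are uncertain if strand was not used in counting.

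Thbs4 (ENSMUSG00000021702, chromosome 13 from 92751590 to 92794818, minus strand), which encodes a thrombospondin of muscle, tendon and neural tissue, was at 2.02, 1.45 and 2.55 CPM in the P30 mice. The P32 mice were at 2.10, 2.66 and 0.985 CPM and the P34 mice at 2.43, 1.91 and 2.54 CPM. At P38 it reached 4.49, 2.27 and 1.26 CPM. The conditions overlapped throughout, with mouse 10 the highest and mouse 6 the lowest. Its log2 fold changes against P30 were -0.07 ± 0.44, 0.19 ± 0.44 and 0.42 ± 0.44 at P32, P34 and P38 (edgeR, adjusted p = 0.968, 0.921 and 0.891).

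Emilin1 (ENSMUSG00000029163, chromosome 5 from 30913402 to 30921277, plus strand) had 6.40, 3.85 and 7.01 CPM in P30 mice 1, 2 and 3. The P32 mice were at 5.40, 7.03 and 3.65 CPM and the P34 mice at 3.39, 2.42 and 3.35 CPM. At P38 it was at 6.21, 6.05 and 3.83 CPM. The P34 mice lay below all other mice, and mice 2, 6 and 12 were the next lowest. Against P30 the log2 fold change at P34 was -0.91 ± 0.30 (SE; edgeR, adjusted p = 0.305) and thus not called, and it was -0.10 ± 0.29 at both P32 and P38 (edgeR, adjusted p = 0.913 and 0.969).

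Emilin2 (ENSMUSG00000024053, chromosome 17 from 71252172 to 71311978, minus strand) encodes the emilin that is also found around blood vessels and in platelets. It was at 0.536, 3.19 and 3.45 CPM in P30 mice 1, 2 and 3, and its highest value in any cKO mouse was 0.516 CPM, in mouse 11. The cKO mice were at 0.362 to 0.510 CPM at P32, 0.237 to 0.331 CPM at P34 and 0.339 to 0.516 CPM at P38. P30 mouse 1 was above all cKO mice by a small step, and mice 2 and 3 by a large one. The log2 fold change was -2.98 ± 0.58 (SE; edgeR, adjusted p = 0.0409) at P34 and -2.66 ± 0.38 (SE; edgeR, adjusted p = 0.0280) for all 9 cKO mice. It was -2.52 ± 0.56 at both P32 and P38, with adjusted p values of 0.698 and 0.528 (edgeR).

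**Figure D3:**
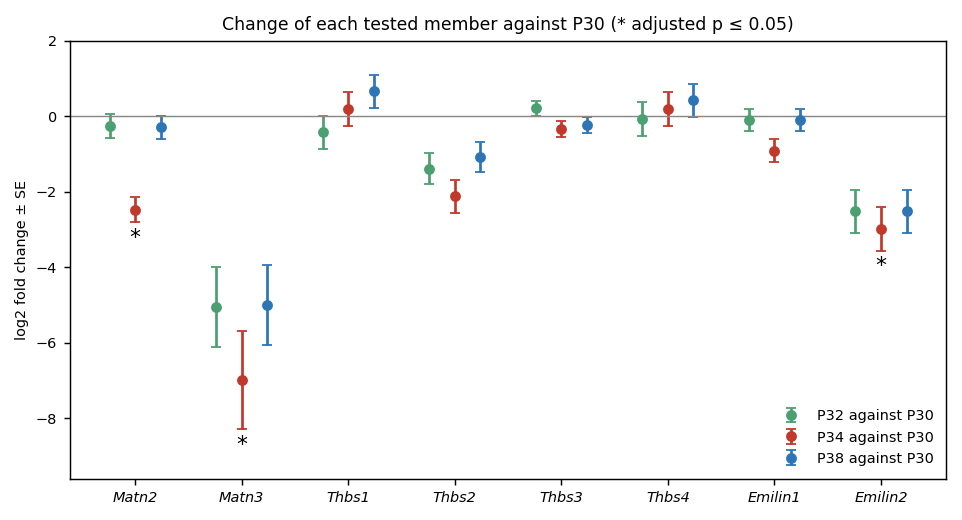
Log2 fold change against P30 (vertical axis) of the 8 tested genes (horizontal axis) at P32, P34 and P38, with the SE from edgeR's quasi-likelihood fit; a star marks an adjusted p of at most 0.05. The 3 stars are Matn2, Matn3 and Emilin2 at P34, and each comparison uses the same 3 P30 mice.

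At P34, 3 of the 8 tested genes (Matn2, Matn3 and Emilin2) were lower than at P30 and 0 higher, where 0.66% of all tested genes were lower. Matn3 is in this count and in those below that name it, although it passed the filter only through P30. DESeq2 added Thbs2 at P34, where it called 1.9% of all genes lower, and an unadjusted p added Thbs2 and Emilin1, where 5.42% of all genes were lower. By neither was a member higher at P34. At P32 and at P38, 0 members were called lower, as were 0 genes in all (0%). At an unadjusted p of at most 0.05 with the same fold limit, Matn3, Thbs2 and Emilin2 were lower at both ages, and DESeq2 called Emilin2 lower at P32 and Matn3 and Emilin2 lower at P38. The share of all genes lower at an unadjusted p was 1.77% at P32 and 2.66% at P38, and by DESeq2 it was 0.0913% and 0.183%. With the 9 cKO mice as one group, 2 members (Matn3 and Emilin2) were lower against 0.0537% of all genes, and 0 higher. DESeq2 called the same 2 (0.226% of all genes), and an unadjusted p added Thbs2 (1.57%). Matn2 alone was called between P32 and P34 (lower, 0.242% of all genes) and between P34 and P38 (higher, 0.199% of all genes). An unadjusted p added Thbs3 and Emilin1 in the first case (8.93% of all genes) and Thbs2 and Emilin1 in the second (3.01%). Between P32 and P38, 0 members were called, as were 0 genes in all, and Thbs1 alone was higher at an unadjusted p (log2 fold change 1.09 ± 0.44), where 5.68% of all genes were. By DESeq2 0 members were called there, beside 2.65% of all genes lower and 3.4% higher. For any difference between the 4 conditions, Matn2 and Matn3 passed (edgeR, adjusted p = 0.0299 and 0.0313) against 0.344% of all genes, and Emilin2 did not (edgeR, adjusted p = 0.0567). DESeq2 called Matn2, Matn3, Thbs2 and Emilin2 there (7.65% of all genes), and an unadjusted p these 4 and Emilin1 (17.2%).

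The remaining members were not called by edgeR in the comparisons that follow, and Matn4 was not tested in any. From P32 to P34 their log2 fold changes were 0.62 ± 0.44 for Thbs1, -0.73 ± 0.43 for Thbs2, -0.54 ± 0.21 for Thbs3, 0.26 ± 0.45 for Thbs4, -0.81 ± 0.30 for Emilin1 and -0.46 ± 0.61 for Emilin2. From P34 to P38 they were 0.47 ± 0.43 for Thbs1, 1.06 ± 0.43 for Thbs2, 0.10 ± 0.21 for Thbs3, 0.23 ± 0.44 for Thbs4, 0.82 ± 0.30 for Emilin1 and 0.46 ± 0.61 for Emilin2. Matn3 had 1 to 7 counts in the P32 mice, 0 to 2 in the P34 mice and 0 to 10 in the P38 mice. These values overlapped, and the P34 mice stayed under the floor of 3 counts. No fold is therefore given for Matn3 from P32 to P34 or from P34 to P38. Thbs2 and Emilin1 thus had the widest steps after Matn2 among the members above that floor from P34 to P38. From P32 to P38 Thbs2 was at 0.33 ± 0.41, Thbs3 at -0.44 ± 0.21 and Thbs4 at 0.49 ± 0.44, and Matn2, Matn3, Emilin1 and Emilin2 were between -0.03 and 0.04. With the 9 cKO mice as one group, Matn2 was at -0.71 ± 0.53, Thbs1 at 0.21 ± 0.42, Thbs3 at -0.10 ± 0.20, Thbs4 at 0.20 ± 0.36 and Emilin1 at -0.32 ± 0.30. For any difference, Thbs1, Thbs2, Thbs3, Thbs4 and Emilin1 had adjusted p values of 0.414, 0.154, 0.345, 0.827 and 0.277 (edgeR).

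All 3 values lay below all 3 P30 values for 3 members in P32, 5 in P34 and 4 in P38 mice. Matn3 was among them each time. Of all tested genes, 4.39, 9.67 and 7.96% had such values. All 9 cKO values lay below all P30 values for Matn3, Thbs2 and Emilin2, against 0.478% of tested genes. The median log2 fold change of the 8 members was -0.35 (P32), -1.52 (P34) and -0.26 (P38), beside medians of -0.01, -0.0013 and -0.01 over all genes tested. Matn3 is in these counts and medians although it passed the filter only through P30. They therefore do not count as support for the members as a group. The comparisons share their 3 P30 mice, so they do not repeat each other.

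P30 mice 2 and 3 carried much of the difference between P30 and cKO. For Matn3, Thbs2 and Emilin2 both mice were above all other 10 mice, including P30 mouse 1, as were 372 (2%) of the 18628 tested genes. The mean over mice 2 and 3 was 51.6 times that of the other 10 mice for Matn3, 8.54 times for Emilin2 and 2.89 times for Thbs2, while for the remaining 6 members the ratio was 0.771 to 1.68. In the same mice 2 and 3 the summed level of 5 pigment cell markers (Tyr, Tyrp1, Pmel, Mlana and Dct) was 816 and 665 CPM, and 28.9 to 127 CPM in the other 10. The sum of 6 smooth muscle markers (Myh11, Acta2, Tagln, Myl9, Cnn1 and Des) was 181 and 198 CPM in mice 2 and 3, and 9.33 to 48.7 CPM in the others. The visual cycle and transport markers of the retinal pigment epithelium (RPE; Rpe65, Best1, Lrat, Ttr and Rdh5) did not split this way. Their sum was 53.5 and 159 CPM in mice 2 and 3 and 61.7 to 147 CPM in the others. Ttr had the largest part of it, at a mean of 62.0 CPM at P30, against 16.4 CPM for Rdh5, the next. Pericyte markers (84.7 and 72.3 CPM, against 53.0 to 91.3 CPM) and endothelial markers (263 and 223 CPM, against 170 to 301 CPM) overlapped too. The part of pigmented or smooth muscle tissue in the levels of Matn3, Thbs2 and Emilin2 was not tested.

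The calls changed with the mice left out. Without P30 mouse 1, Matn3 and Emilin2 were called lower at P32 and at P38 as well, and Thbs2 joined Matn2, Matn3 and Emilin2 at P34. Thbs2 was called at P34 also without mouse 4, 5, 6 or 12, and in 10 of 21 alternatives in all. Without mouse 1 the share of all genes lower was 0.0997% (P32), 0.777% (P34) and 0.0682% (P38). Without P30 mouse 2, or without P30 mouse 3, Matn2 was the only member called at P34, and it was also the only one left without P34 mouse 7, 8 or 9 or without P38 mouse 11. The log2 fold changes at P34 were -6.03 for Matn3 and -2.70 for Emilin2 without mouse 2, and -7.03 and -2.63 without mouse 3. In the full fit they were -6.99 and -2.98. Emilin2 at P34 was also lost without mouse 5, 10 or 12. With sex as a covariate, Matn2 alone was called at P34, while the log2 fold changes of Matn3 and Emilin2 were -8.25 and -3.29 (edgeR, adjusted p = 0.0540 and 0.0685). With only the P30 and P34 mice in the fit, Matn3 and Emilin2 were no longer called (edgeR, adjusted p = 0.0586 and 0.0992) and Thbs2 was (edgeR, adjusted p = 0.0134). For the 9 cKO mice as one group, Matn3 was no longer called without any 1 of mice 2, 3 and 6 to 12, and Emilin2 without any 1 of mice 2, 3 and 5 to 12. Without the 3 P34 mice, 0 members were called between the remaining 6 cKO mice and P30, with log2 fold changes of -5.02 for Matn3 and -2.51 for Emilin2 (edgeR, adjusted p = 0.401 for both).

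**Figure D4:**
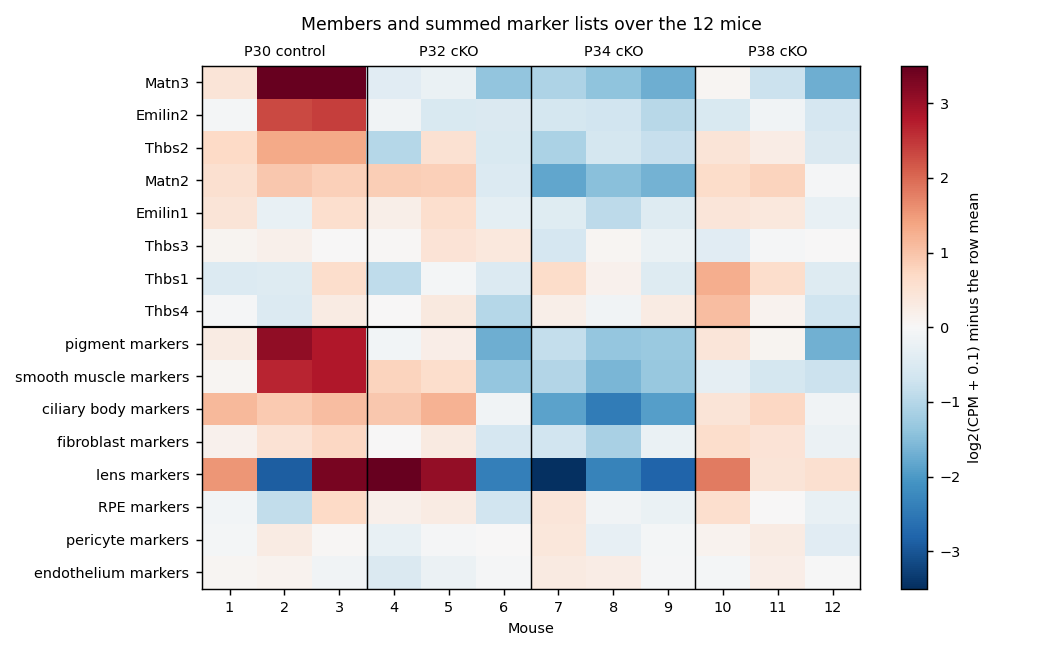
Levels of the 8 tested genes (upper rows) and summed levels of 8 marker lists (lower rows) in the 12 mice (columns, by condition), as log2(CPM + 0.1) minus the mean of the row; red is above and blue below that mean, and the darkest shades include values past the ends of the scale. P30 mice 2 and 3 are red for Matn3, Emilin2, Thbs2 and the pigment and smooth muscle markers, and P34 mice 7 to 9 are blue for Matn2 and the ciliary body markers.

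The promoters of the 3 genes that were high together in mice 2 and 3 were read from RefSeq (GRCm38.p6), in which 7 of the 9 members had an entry. Each sequence below is the 250 bases before the start of transcription, 5′ to 3′ along the gene, shown because OTX2 is a homeodomain protein that binds the letters TAATCC, and capitals mark that motif on either strand.
Matn3, chr12:8947679-8947928, plus strand: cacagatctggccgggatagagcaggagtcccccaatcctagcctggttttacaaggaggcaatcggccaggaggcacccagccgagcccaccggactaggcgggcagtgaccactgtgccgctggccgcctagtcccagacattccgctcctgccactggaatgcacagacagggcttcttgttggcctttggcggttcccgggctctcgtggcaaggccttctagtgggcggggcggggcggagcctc
Thbs2, chr17:14694263-14694512, minus strand: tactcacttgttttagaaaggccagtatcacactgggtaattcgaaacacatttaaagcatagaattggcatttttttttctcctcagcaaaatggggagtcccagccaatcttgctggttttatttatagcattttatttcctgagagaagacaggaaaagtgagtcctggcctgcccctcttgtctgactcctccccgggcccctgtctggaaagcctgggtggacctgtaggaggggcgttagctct
Emilin2, first start, chr17:71311557-71311806, minus strand: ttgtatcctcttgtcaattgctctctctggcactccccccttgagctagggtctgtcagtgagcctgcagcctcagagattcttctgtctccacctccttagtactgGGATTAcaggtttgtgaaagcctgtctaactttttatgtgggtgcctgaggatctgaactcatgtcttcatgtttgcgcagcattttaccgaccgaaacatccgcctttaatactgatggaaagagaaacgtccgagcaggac

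The motif, TAATCC or its complement GGATTA, was in 1 of 9 promoter windows of the members, 143 to 138 bases before the first start of Emilin2, and in 2054 (6.25%) of 32851 windows of all genes. The second start of Emilin2 and the windows of Matn3, Matn4, Thbs2, Thbs3, Thbs4 and Emilin1 did not hold these letters. The match is a description of the sequence and says nothing about binding.

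Per kb of exon, which allows genes to be compared, the order at P30 was Matn2 (mean 2.44 CPM per kb), Thbs1 (1.74), Matn3 (1.31), Emilin1 (1.17), Thbs3 (0.875), Thbs4 (0.611), Emilin2 (0.434), Thbs2 (0.392) and Matn4 (0.0111). Among neighbours in that order, the ranges over mice parted between Thbs3 and Thbs4 and between Thbs2 and Matn4, and overlapped elsewhere. At P34 Thbs1 led with 1.97 ± 0.720 CPM per kb (SD, n = 3), with a range above that of Thbs4, the next gene. Matn2 came after Thbs4, Thbs3 and Emilin1 there, at 0.439 ± 0.0566 CPM per kb (SD, n = 3). Matn4 (0.0131 to 0.032 CPM per kb) and Matn3 (0 to 0.0183) came last with overlapping ranges, at or near the floor of 3 counts. At P32 Matn2 and Thbs1 led with overlapping ranges (means 2.03 and 1.28 CPM per kb), and at P38 they overlapped again (1.99 and 2.72 CPM per kb).

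**Figure D5:**
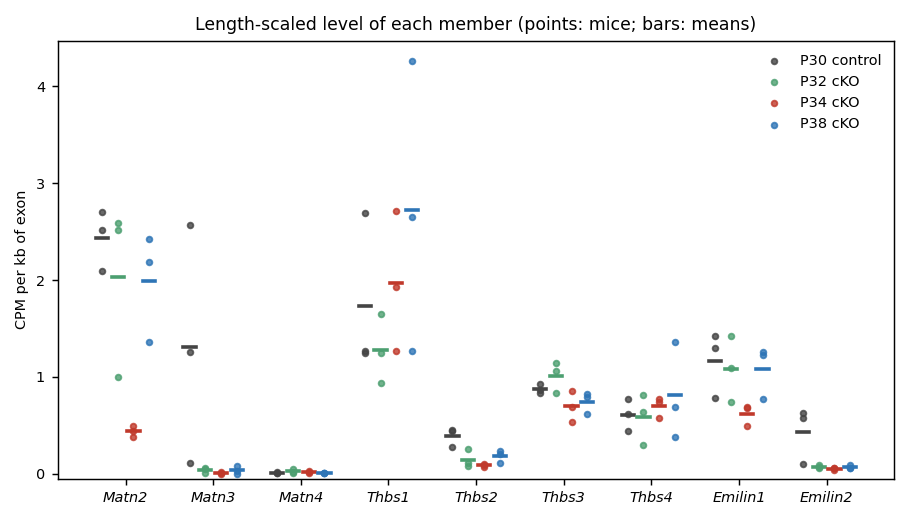
Level per kb of exon (vertical axis, CPM per kb) of the 9 genes in each condition; points are mice and bars are means (n = 3). Matn2 is the highest at P30 with a mean of 2.44, and falls below Thbs1, Thbs4, Thbs3 and Emilin1 at P34.

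Of 5 further genes of these families, Matn1 and Mmrn1, a multimerin of platelets and endothelium, had at most 2 counts in any mouse, and Comp, Emilin3 and Mmrn2 were tested. None of the 3 was called by edgeR in any comparison between conditions. At an unadjusted p Emilin3 was lower at P34 than at P30 and P32 and higher at P38 than at P34, and Comp was lower at P34 than at P32, beside 5.42% of all genes lower for P34 against P30, 8.93% lower for P34 against P32 and 3.01% higher for P38 against P34. Between P32 and P34, DESeq2 called Emilin3 lower (log2 fold change -4.20, DESeq2 adjusted p = 0.0275), as it did 5.13% of all genes. Emilin3 was near all-or-none over mice: it was at 1.05 to 5.32 CPM in the P30 mice and at 5.37, 5.22, 8.66 and 5.25 CPM in mice 4, 5, 10 and 11, and at 0.0739 to 0.220 CPM in mice 6, 7, 8, 9 and 12. Those 5 mice are also the 5 with the lowest Matn2. Its log2 fold change at P34 against P30 was -4.19 ± 1.42 (SE; edgeR, adjusted p = 0.318). Comp, at 0.406 to 1.27 CPM, and the endothelial multimerin Mmrn2, at 1.15 to 2.35 CPM, had log2 fold changes of -0.39 ± 0.29 and -0.36 ± 0.28 at P34 (edgeR, adjusted p = 0.678 and 0.696).

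None of 11 receptor genes for thrombospondins and emilins was called at P32, P34 or P38 against P30 by edgeR, also at an unadjusted p, where 1.77, 5.42 and 2.66% of all genes were lower, so that 0 of 11 is near that background, with a median log2 fold change of 0.11 at P34. Cd47, the broadly made receptor of Thbs1, was at 135 CPM at P30 and 129 CPM at P34 on average (log2 fold change -0.06 ± 0.11). Cd36, the scavenger receptor through which some thrombospondins act on endothelium, was at 2.28 and 3.09 CPM (0.44 ± 0.33). Cacna2d1, the calcium channel subunit through which thrombospondins act on synapses, was at 93.9 and 108 CPM (0.20 ± 0.16). The integrin subunits Itga4 and Itga9, which bind emilins, had log2 fold changes of 0.37 ± 0.26 and 0.11 ± 0.16. For P38 against P32, 0 of the 11 were called by edgeR, and 3 were higher at an unadjusted p, beside 5.68% of all genes. For P34 against P32, Itga4 was at 0.83 ± 0.27, called higher by DESeq2 (DESeq2 adjusted p = 0.0269) but not by edgeR (edgeR, adjusted p = 0.1025). None of the 3 TGF-beta ligand genes was called at P32, P34 or P38 against P30. Their log2 fold changes at P34 were -0.63 ± 0.50 for Tgfb1, -0.24 ± 0.10 for Tgfb2 and 0.11 ± 0.16 for Tgfb3. Tgfb2 had unadjusted p values of 0.0258, 0.0350 and 0.0287 at P32, P34 and P38 (edgeR) but missed the fold limit of 0.5.

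Of 15 genes for matrix partners, 5 were lower at P34 than at P30 and 0 higher, with a median log2 fold change of -0.81, where 0.66% of all tested genes were lower. DESeq2 called the same 5 and Col9a3 (1.9% of all genes). They were Fbn1, which encodes fibrillin-1 of microfibrils (log2 fold change -2.03 ± 0.23), Col9a1 (-1.18 ± 0.14) and Col9a2 (-1.41 ± 0.20), which encode chains of the fibril-associated collagen IX, Bgn, which encodes the proteoglycan biglycan (-1.94 ± 0.35), and Fbln5, which encodes an elastic fiber protein (-1.71 ± 0.31). Their adjusted p values were 0.00158, 0.00158, 0.00604, 0.0279 and 0.0313 in that order (edgeR). Fn1, which encodes fibronectin, had a log2 fold change of 0.20 ± 0.17, and Eln, which encodes elastin, of -0.56 ± 0.22 (edgeR, adjusted p = 0.735 and 0.394). At P32 and P38, 0 of the 15 were called against P30 by edgeR, and 4 and 6 were lower at an unadjusted p, beside 1.77% and 2.66% of all genes. DESeq2 called Col9a1 lower at P38 (DESeq2 adjusted p = 0.0496). By edgeR Fbn1 was higher at P38 than at P34 (0.199% of all genes), and Col9a1, Col9a2, Col9a3 and Fbn1 were lower at P34 than at P32 (0.242% of all genes). The ciliary body markers given above for Matn2 were lowest in the same P34 mice, and their part in these values was not tested.

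For each tested member other than Thbs1, the 3 genes whose log2 CPM was most like it over the 12 libraries were found by Pearson's r, as a description without a test, since genes read in the same 12 libraries share each library's depth and tissue content. Matn2 was most like Fbln7, Chmp4c and Olfml2a (r = 0.981, 0.981 and 0.979). Matn3 was most like Ucp2, Pld5 and the smooth muscle gene Myl9 (0.985, 0.976 and 0.976), and Emilin2 most like the smooth muscle gene Tagln, C2 and Thbd (0.978, 0.969 and 0.961). Emilin1 was nearest to Layn, Tmc6 and Ldlrad3 (0.974, 0.961 and 0.956), and Thbs3 to Gm48194, Gm20219 and Prpf40b (0.958, 0.957 and 0.956). Thbs2 was nearest to Npsr1, Slc4a5 and Timp3 (0.945, 0.944 and 0.941). Thbs4 had the weakest likeness of these, with Myc, Scd2 and Slc6a20a at 0.906, 0.879 and 0.868. An r of at least 0.9 was reached by 112 genes for Matn2, 98 for Thbs3, 92 for Emilin1, 37 for Matn3, 28 for Emilin2, 11 for Thbs2 and 1 for Thbs4.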

How the data were processed

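The authors prepared stranded mRNA libraries from whole retina and sequenced single reads. Per the labels and the methods they mapped the reads to mm10 with STAR 2.5.3a and counted them per Ensembl gene with HTSeq 0.6.1p1 in union mode. The deposited values are whole-number counts per gene, without normalization, in 1 file per mouse. The strand option is not given in the sources used here. Reads with no unique position (23.7 to 32.1% of the reads in the files), on no gene (6.53 to 13.7%) or on more than 1 gene (0.646 to 0.696%) were not counted on genes and stayed out of library sizes.

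Counts were scaled with edgeR 4.0.16 (TMM) in R 4.3.3. Genes kept by edgeR's filter over the 4 conditions entered 1 quasi-likelihood fit of all 12 mice with a mean per condition, and a second fit compared the 9 cKO mice as one group with P30. P-values were adjusted by Benjamini-Hochberg over the 18628 genes tested, and the SE is the size of the log2 fold change divided by the square root of F. DESeq2, the test that the study used, was run anew as an alternative (version 1.42.0), so its calls here are not the study's. The study lists both Matn3 and Emilin2 as downregulated at P32, P34 and P38. One of its legends gives n = 2 for the P30 controls, whereas 3 P30 mice are used here. P-values set the difference between group means against the spread between mice within groups. Symbols, positions and exon lengths came from GENCODE M21 (GRCm38), which named 54079 (99.9%) of the genes. The likeness of genes used a prior count of 2. The floor of 3 counts covers counting error only. The procedure was tested on simulated counts.

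The members, the gene lists and the marker lists were chosen with earlier results of these data known, so no list is independent evidence. All 9 members are named in each comparison. Of the other lists, those called or needed as examples are named, and the 3 most like genes are named by rule, except those of Thbs1, which are not reported here. Other alternatives were size factors, filters, thresholds, a robust fit, only the conditions compared, sex and a ciliary body score as covariates, and leaving out each mouse. Leaving out the P34 mice was added after seeing the data.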

Additional observations from a re-analysis of the deposited data

Results flagged for a closer look

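Thbs4 in P38 mouse 10 stood far above the other cKO mice, at 4.49 CPM, where the gap to the next mouse was 0.521 of the range over the 9 cKO mice (limit 0.493 by Dixon's test). Among the 8 tested genes looked at in this way, chance alone would mark about 1 in 20.

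The change of Matn2 against P30 differed between ages. The difference between its P34 and P32 effects was a log2 fold change of -2.21 ± 0.33 (edgeR's quasi-likelihood test, adjusted p = 0.0162), and that between its P38 and P34 effects was 2.18 ± 0.33 (edgeR, adjusted p = 0.0207). Summed ciliary body markers were at 11.1 to 16.5 CPM in the P34 mice and at 55.2 CPM or more in the others, and their part in the difference was not tested apart from the covariate fit.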

How the results depend on the processing

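At 29701483 counts or more per mouse, Matn3 in cKO mice and Matn4 in all mice were at or near the floor of 3 counts, and with 3 mice per age 1 mouse can decide a call. Matn2 at P34 against P30 stayed lower under all alternatives other than the ciliary body covariate, with adjusted p values up to 0.0459 (edgeR or DESeq2). No paired analysis was possible because each mouse has its own number and none is shared between groups. The cause of the changes below was not tested, except that fewer genes are tested at 1 CPM or more in 3 mice, a filter that Matn3 and Emilin2 do not pass.

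Leaving out 1 mouse at a time, the members called ranged from 0 to 2 at P32, from 1 to 4 at P34 and from 0 to 2 at P38 against P30, from 0 to 2 between P32 and P34, from 0 to 1 between P34 and P38, from 0 to 2 for the 9 cKO mice and from 0 to 3 for any difference. At an unadjusted p the counts were 3 at P32, 5 at P34, 3 at P38, 3 for P34 against P32, 3 for P38 against P34, 1 for P38 against P32 and 5 for any difference. With no filter on low counts, 2 members were lower at P32 and 1 at P38, and 4 differed in any way. By DESeq2 these counts were 1, 2 and 4. At 1 CPM or more in 3 mice, 1 member was lower at P34, 0 for the 9 cKO mice, and 1 differed in any way, and sex as a covariate gave 1, 0 and 1. With the ciliary body covariate 0 members were called at P34, for P34 against P32, for P38 against P34, for the 9 cKO mice and for any difference. For the 9 cKO mice Matn3 was then at -4.28 and Emilin2 at -2.38 on the log2 scale, and Emilin2 at P34 was at -1.78. With only the conditions compared, Matn2 and Thbs2 were called at P34 in place of Matn2, Matn3 and Emilin2. In that setting 0 members were called for P34 against P32, and without the P34 mice 0 for the 9 cKO mice. Where the text gives no share of all genes called under a setting, the count of members was not set against a background.

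With the ciliary body covariate, log2 fold changes against P30 turned to 0.11 (Matn2), 0.35 (Thbs4) and 0.18 (Emilin1) at P32. They turned to 0.28 (Matn2), 4.68 ± 5.90 (SE; Matn3) and 0.95 (Emilin1) at P34, and to 0.25 (Matn2) and 0.26 (Emilin1) at P38. For the 9 cKO mice they turned to 0.16 (Matn2), 0.04 (Thbs3) and 0.10 (Emilin1). For P34 against P32 they turned to 0.17 (Matn2), 8.31 ± 5.34 (SE; Matn3), 0.45 (Thbs2), 0.77 (Emilin1) and 0.51 (Emilin2). For P38 against P34 they turned to -0.03 (Matn2), -7.35 ± 4.88 (SE; Matn3), -0.21 (Thbs1), -0.08 (Thbs2), -2.18 (Thbs4), -0.69 (Emilin1) and -0.50 (Emilin2). For P38 against P32 they turned to 0.14 (Matn2) and 0.02 (Emilin2). None of these was called. With sex as a covariate they turned to -0.26 (Thbs1) and -0.06 (Thbs4) at P34, to -0.67 (Matn3) and -0.06 (Emilin1) for P38 against P32, and to -0.35 (Thbs1), 0.09 (Thbs3) and -0.11 (Thbs4) for the 9 cKO mice. Without the P34 mice Thbs3 turned to 0.01. For P38 against P32, Emilin1 turned to -0.0023 with DESeq2's size factors, -0.03 with upper quartile scaling, -0.0049 at 1 CPM or more and -0.0015 by DESeq2, Matn3 to -0.06 by DESeq2, and Emilin2 to 0.01 with only the conditions compared.

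Leaving out 1 mouse, uncalled values changed sign within these ranges. At P32 against P30 they were -0.47 to 0.07 for Matn2, -0.66 to 0.02 for Thbs1, -0.38 to 0.25 for Thbs4 and -0.35 to 0.11 for Emilin1. Thbs1 was at -0.12 to 0.64 at P34 and at -0.01 to 0.66 for the 9 cKO mice, and at P38 Thbs4 was at -0.16 to 0.76 and Emilin1 at -0.32 to 0.09. For P34 against P32, Thbs4 was at -0.06 to 0.58. For P38 against P34, Thbs1 was at -0.01 to 0.81, Thbs3 at -0.06 to 0.28 and Thbs4 at -0.36 to 0.56. For P38 against P32, Matn2 was at -0.35 to 0.18, Matn3 at -1.06 to 0.52, Thbs4 at -0.10 to 0.82, Emilin1 at -0.21 to 0.25 and Emilin2 at -0.22 to 0.16.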
